A study of Mus musculus with 8 samples.

Results

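Granulosa cells convert cholesterol to progesterone once the ovulatory hormone surge begins, and they can make that cholesterol or take it up. The genes described here are 29 genes of cholesterol synthesis, its control by the sterol-sensing transcription factors, and the movement of sterol inside the cell, out of 51886 gene symbols in the table. They were taken by symbol from a list of mevalonate and sterol enzymes, SREBP control and sterol transport, with no measured value in the rule. The list does not hold every enzyme of the pathway. All 29 were found, and all 29 reached 1 TPM, a length-corrected share of all transcripts, in 4 or more of the 8 libraries, as did 14472 genes in all.

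There were 4 libraries from knockout mice of a strain named PGR-A KO, for isoform A of the progesterone receptor, and 4 libraries from wild-type (WT) mice of the same strain. All mice were 21 to 27 days old, received 5 IU of the follicle-stimulating gonadotropin eCG and, 46 hours later, 5 IU of the ovulation-triggering gonadotropin hCG, and gave their peri-ovulatory granulosa cells 8 hours after hCG. Each library pooled cells of 2 to 3 mice, which limits what can be said of a single animal. How the allele was made is not given in the sources used here. Because TPM is corrected for transcript length, levels can be set side by side between genes, but the sequencing depth is not known.

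Cells make cholesterol from acetyl-CoA through mevalonate and isoprenoid diphosphates to squalene, which is closed into lanosterol and trimmed to cholesterol. When membrane sterol falls, the escort protein SCAP carries the SREBP precursors from the endoplasmic reticulum to the Golgi, where they are cut to release transcription factors that switch on most of these enzymes. When sterol is plentiful, INSIG proteins hold SCAP back. Ovarian cells that are becoming luteal use the product as the raw material of progesterone.

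The receptor gene Pgr had 3.21, 3.52, 2.01 and 3.08 TPM in PGR-A KO libraries, against 1.56, 0.878, 1.41 and 0.756 TPM in WT libraries. How transcripts were summed to the symbol is not given in the sources used here. The value does not tell the isoforms apart and does not check the labels. Of 14472 genes tested between the genotypes with limma on log2(TPM + 1), 2 passed an adjusted p of 0.05, or 0.0138%. Of the 29 sterol genes, PGR-A KO replicate 3 was below the WT mean in 29. WT replicate 1 was above the KO mean in 26. In some of these genes, as in Stard5, the KO mean was itself below the WT mean. The same shares over all genes tested were not counted. All 8 granulosa markers looked up, Inha the most abundant, were above the filter.

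No difference between PGR-A KO and WT cells passed the test in any of the 29 sterol genes, and the spread within each genotype was wide. The 0 genes that passed (limma, adjusted p from 0.802 to 0.989) stand against 0.0138% of all genes tested. At an unadjusted limma p under 0.05 there were also 0 of 29, where 6.31% of all genes tested fell below it. The 2 genotypes overlapped in all 29 genes, while in 3.42% of all genes tested they did not overlap. On the log2 scale the change was above 0 in 22 sterol genes and below 0 in 7, or 75.9% above 0, against 42.6% of all genes tested. Its median was 0.12 over the sterol genes and -0.02 over all genes tested. The sterol gene median was 0.27 when PGR-A KO replicate 3 was left out and 0.24 when WT replicate 1 was. It was 0.05 and 0.02 when KO replicates 1 and 2 were left out in turn, and 0.05 and 0.04 when WT replicates 3 and 4 were.

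**Figure D1:**
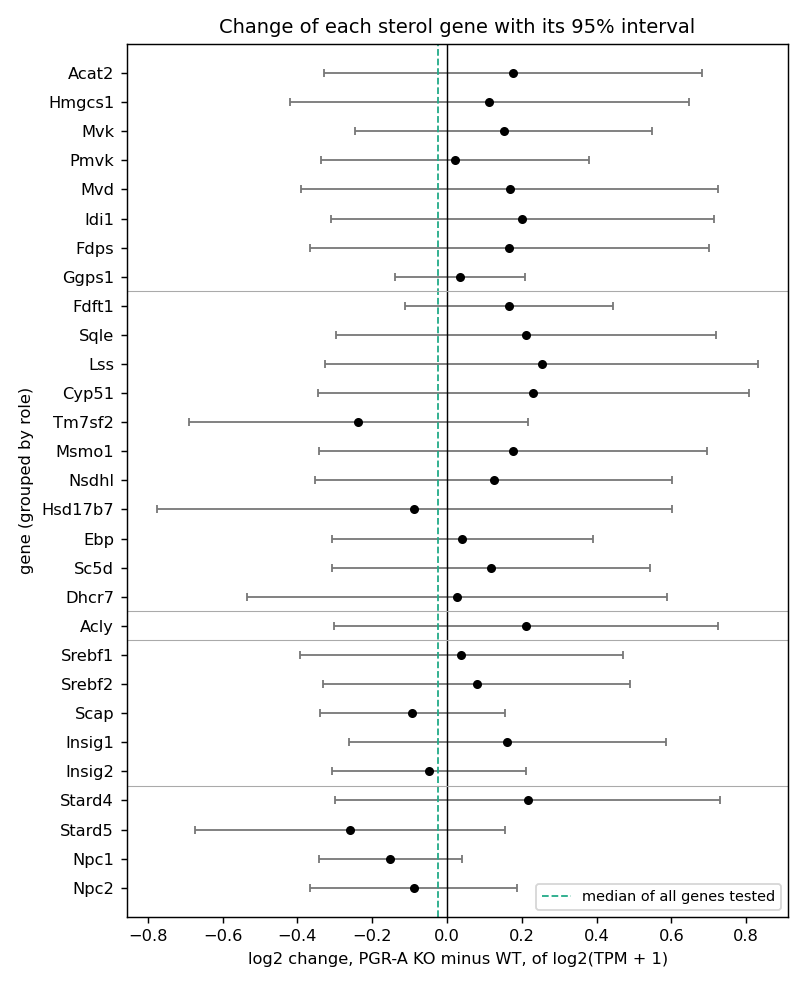
Change in log2(TPM + 1) of each of the 29 sterol genes, as PGR-A KO minus WT (x axis), with bars for the 95% interval of the limma fit and genes grouped by role (y axis). Every interval includes 0, and the dashed line marks the median of all genes tested at -0.02.

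The intervals leave room for moderate differences in either direction. The highest upper bound among the 29 genes was 0.83 on the log2 scale, for the lanosterol synthase gene Lss, and the lowest lower bound was -0.78, for the sterol reductase gene Hsd17b7. The narrowest interval was that of Ggps1, whose product makes geranylgeranyl diphosphate for protein anchoring, from -0.14 to 0.21. The plot of changes shows the enzymes mostly right of 0 and 3 of the 4 carrier genes left of it.

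The first steps of the pathway build mevalonate from acetyl-CoA. The gene of ATP citrate lyase, Acly, which supplies cytosolic acetyl-CoA, had 299.6, 299, 162 and 278 TPM in PGR-A KO libraries, against 309, 209.9, 192 and 180.1 TPM in WT libraries. Hmgcs1, which encodes the synthase that commits acetoacetyl-CoA to the pathway, had 225, 239.7, 142 and 204 TPM in PGR-A KO libraries, against 282, 193, 136 and 153 TPM in WT libraries. In both genes the highest library was WT replicate 1, and PGR-A KO replicate 3 lay far below the other KO libraries. The log2 changes were 0.21 (SE 0.23, limma adjusted p = 0.909) for Acly and 0.11 (SE 0.24, limma adjusted p = 0.953) for Hmgcs1, each smaller than its error. Acat2, the cytosolic thiolase that precedes Hmgcs1, averaged 50.6 ± 12.7 TPM in PGR-A KO and 44.5 ± 12.1 TPM in WT (SD, n = 4 each).

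The kinases and the decarboxylase turn mevalonate into isopentenyl diphosphate, and each had a lower mean TPM than Hmgcs1. Mvk averaged 51.0 ± 11.2 TPM in PGR-A KO and 45.5 ± 8.18 TPM in WT (SD, n = 4 each). Pmvk averaged 24.8 ± 5.17 TPM in PGR-A KO and 24.2 ± 3.56 TPM in WT (SD, n = 4 each). Mvd averaged 36.5 ± 10.1 TPM in PGR-A KO and 32.2 ± 9.63 TPM in WT (SD, n = 4 each). In these 3 genes the means lay within 1 SD of each other.

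Idi1, the isomerase that makes the reactive isoprene unit, had 99.0, 103, 62.7 and 102 TPM in PGR-A KO libraries, against 116, 81.7, 57.9 and 67.7 TPM in WT libraries. Fdps, which joins isoprene units into farnesyl diphosphate, had 413, 447, 228 and 384 TPM in PGR-A KO libraries, against 452, 315, 251 and 286 TPM in WT libraries. Its 3 high KO libraries lay above 3 of the WT libraries, but WT replicate 1 exceeded them all and PGR-A KO replicate 3 was the lowest of the 8. Farnesyl diphosphate feeds both sterols and Ggps1, and Ggps1 had 34.8, 34.1, 30.9 and 34.8 TPM in PGR-A KO libraries, against 31.4, 36.6, 32.4 and 31.0 TPM in WT libraries. Ggps1 varied 1.18-fold between its highest and lowest library, the smallest range of the 29 genes, where Fdps varied 1.98-fold.

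The squalene steps commit farnesyl diphosphate to sterols. Fdft1, which encodes squalene synthase, had 84.5, 103, 69.5 and 78.4 TPM in PGR-A KO libraries, against 86.1, 68.5, 69.7 and 72.1 TPM in WT libraries. Sqle, the squalene epoxidase gene, had 124, 138, 71.9 and 111 TPM in PGR-A KO libraries, against 134, 91.3, 76.7 and 80.8 TPM in WT libraries. Lss had 43.3, 61.6, 30.7 and 46.8 TPM in PGR-A KO libraries, against 60.7, 30.4, 30.6 and 33.0 TPM in WT libraries. In all 3 genes PGR-A KO replicate 2 was the highest library of its genotype and WT replicate 1 the highest of the other. Lss had the largest log2 change upward of the 29 genes, 0.25 (SE 0.26, limma adjusted p = 0.907), and Fdft1 had 0.17 (SE 0.12, limma adjusted p = 0.854).

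The enzymes after lanosterol held both the highest and the lowest level of the 29 genes. Msmo1, a methylsterol oxidase, had 686, 671, 393 and 618 TPM in PGR-A KO libraries, against 763, 482, 399.6 and 466 TPM in WT libraries. Cyp51, which encodes the lanosterol demethylase, had 125, 139, 67.6 and 113 TPM in PGR-A KO libraries, against 138, 91.7, 72.5 and 76.5 TPM in WT libraries. Dhcr7, the reductase gene at the end of the pathway, had 179.8, 198, 93.6 and 163 TPM in PGR-A KO libraries, against 213, 151, 123 and 127 TPM in WT libraries. The genotypes interleaved in each of the 3, with log2 changes of 0.18, 0.23 and 0.03 in turn and limma adjusted p of 0.929, 0.909 and 0.989. Nsdhl, a decarboxylating dehydrogenase, averaged 54.8 ± 13.6 TPM in PGR-A KO and 49.9 ± 12.5 TPM in WT (SD, n = 4 each). Ebp, the sterol isomerase gene, averaged 42.6 ± 8.92 TPM in PGR-A KO and 40.9 ± 5.39 TPM in WT, and the desaturase gene Sc5d 118 ± 28.99 TPM in PGR-A KO and 107 ± 16.9 TPM in WT (SD, n = 4 each).

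A pair of enzymes in this stretch had the opposite sign and stood apart from the others in 1 WT library. Hsd17b7, whose product acts on sterols and also makes estradiol from estrone, had 37.7, 45.9, 21.5 and 30.7 TPM in PGR-A KO libraries, against 37.8, 60.7, 25.7 and 24.8 TPM in WT libraries. Tm7sf2, a reductase of the sterol ring and the lowest of the 29 genes, had 9.61, 13.0, 7.04 and 11.5 TPM in PGR-A KO libraries, against 14.1, 15.3, 9.55 and 10.1 TPM in WT libraries. WT replicate 2 was the highest library for both. The log2 change was -0.09 (SE 0.31) for Hsd17b7, where it was 0.17 without WT replicate 2, and -0.24 (SE 0.20) for Tm7sf2, with limma adjusted p of 0.971 and 0.878. Tm7sf2 shares 532 bases at 100% identity with a Vps51 transcript in GENCODE M21, so its value is uncertain.

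**Figure D2:**
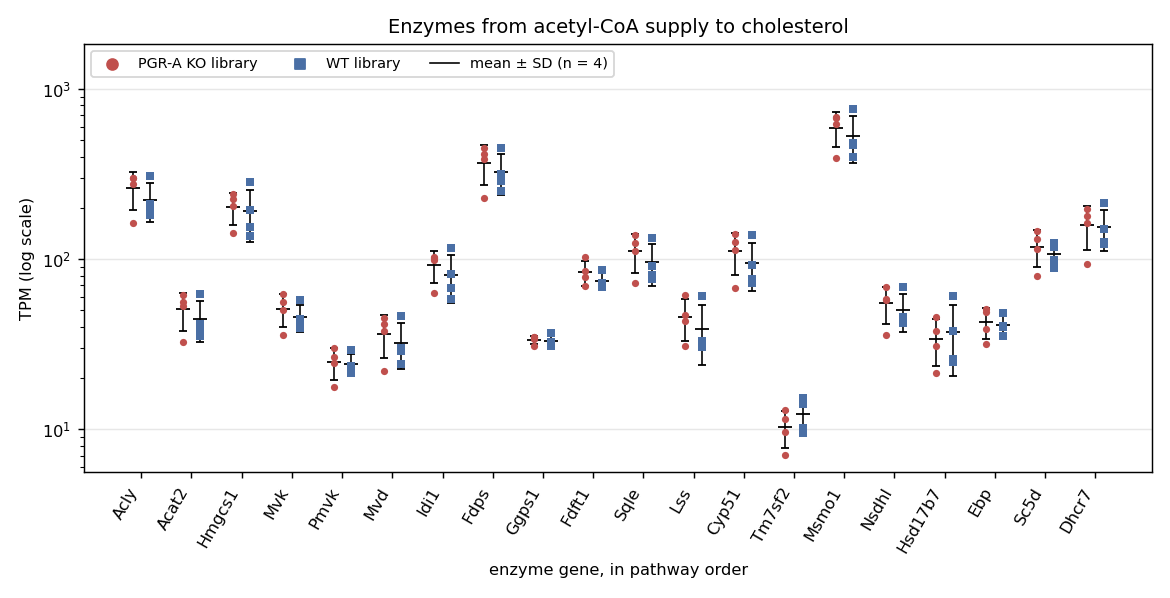
TPM of Acly and the 19 pathway enzymes in pathway order (x axis) on a log scale (y axis), with a point per library, PGR-A KO left of WT, and lines for mean ± SD (n = 4). Msmo1 is the highest and Tm7sf2 the lowest, and the 2 genotypes overlap in every enzyme.

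Summed over the 19 enzymes from Acat2 to Dhcr7, the libraries held 2481, 2656, 1473 and 2274 TPM in PGR-A KO, against 2763, 1948, 1582 and 1740.5 TPM in WT. The lowest of the 8 sums was a KO library and the highest a WT library. The means were 2221 ± 523 TPM in PGR-A KO and 2009 ± 525 TPM in WT (SD, n = 4 each), and the difference of 212 TPM was smaller than either SD. The difference was 462 TPM when PGR-A KO replicate 3 was left out and 464 TPM when WT replicate 1 was. It was 126 and 67.3 TPM when KO replicates 1 and 2 were left out in turn, and 70.3 and 123 TPM when WT replicates 3 and 4 were.

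The SREBP genes and their escort were all expressed. Srebf2, whose product is known mainly for driving cholesterol genes, had 105, 116, 66.3 and 96.4 TPM in PGR-A KO libraries, against 116, 80.9, 82.5 and 80.7 TPM in WT libraries. Srebf1, known mainly for fatty acid genes, had 58.8, 81.0, 45.2 and 62.8 TPM in PGR-A KO libraries, against 80.2, 49.6, 56.5 and 54.1 TPM in WT libraries. Both followed the enzymes, with WT replicate 1 far above the other WT libraries. Scap had 133, 155, 108 and 121 TPM in PGR-A KO libraries, against 128, 143, 146 and 130.3 TPM in WT libraries. In Scap the WT libraries lay close together and WT replicate 1 was the lowest of them. The log2 changes were 0.08 (SE 0.18) for Srebf2, 0.04 (SE 0.19) for Srebf1 and -0.09 (SE 0.11) for Scap, with limma adjusted p of 0.957, 0.980 and 0.919.

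The 2 INSIG genes differed in level and in how they varied. Insig1, itself a known target of SREBP, had 234, 258, 161 and 215 TPM in PGR-A KO libraries, against 270.0, 171, 161 and 179.7 TPM in WT libraries. Insig2 had 30.7, 26.9, 22.0 and 25.5 TPM in PGR-A KO libraries, against 24.7, 31.4, 27.3 and 25.1 TPM in WT libraries. WT replicate 1 was the highest of the 8 for Insig1 and the lowest WT library for Insig2. The ratio of Insig1 to Insig2 within a library was 7.62, 9.58, 7.34 and 8.43 in PGR-A KO, against 10.9, 5.44, 5.87 and 7.17 in WT, and the genotypes overlapped.

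Among the sterol carriers, Stard4 and Stard5, which encode related lipid-transfer proteins of the cytosol, had changes of opposite sign. Stard4 had 29.7, 30.1, 17.4 and 27.9 TPM in PGR-A KO libraries, against 33.2, 21.8, 16.7 and 19.2 TPM in WT libraries (log2 change 0.22, SE 0.23, limma adjusted p = 0.908). Stard5 had 37.8, 27.1, 23.5 and 35.3 TPM in PGR-A KO libraries, against 48.6, 37.9, 30.3 and 32.0 TPM in WT libraries (log2 change -0.26, SE 0.18, limma adjusted p = 0.847). Neither gene separated the genotypes by itself. The ratio of Stard5 to Stard4 within a library was 1.28, 0.901, 1.35 and 1.27 in PGR-A KO, against 1.47, 1.74, 1.81 and 1.66 in WT, so every KO library lay below every WT library. The ratio averaged 1.20 ± 0.201 in PGR-A KO and 1.67 ± 0.149 in WT (SD, n = 4 each), with an exact 2-sided permutation p of 0.0286, the smallest that 4 libraries against 4 allow. It was 1 of 9 ratios compared, chosen with the members' values known, and did not pass over the 9 (adjusted p = 0.257 from the exact permutation tests). The difference of KO minus WT ran from -0.54 to -0.37 with each library left out in turn.

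Npc1 and Npc2, whose products pass cholesterol out of lysosomes, varied less between libraries than most of the 29 genes. Npc1 had 32.3, 33.9, 32.0 and 26.5 TPM in PGR-A KO libraries, against 34.3, 33.4, 36.2 and 34.5 TPM in WT libraries. PGR-A KO replicate 4 lay below the other libraries, and PGR-A KO replicate 2 lay above WT replicate 2. Npc1 had the lowest unadjusted limma p of the 29 genes, 0.107, with a log2 change of -0.15 (SE 0.085, limma adjusted p = 0.802). Npc2 had 102, 100.1, 77.8 and 92.0 TPM in PGR-A KO libraries, against 113, 109.7, 84.7 and 89.3 TPM in WT libraries. The ratio of Npc2 to Npc1 averaged 3.01 ± 0.441 in PGR-A KO and 2.88 ± 0.490 in WT (SD, n = 4 each).

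**Figure D3:**
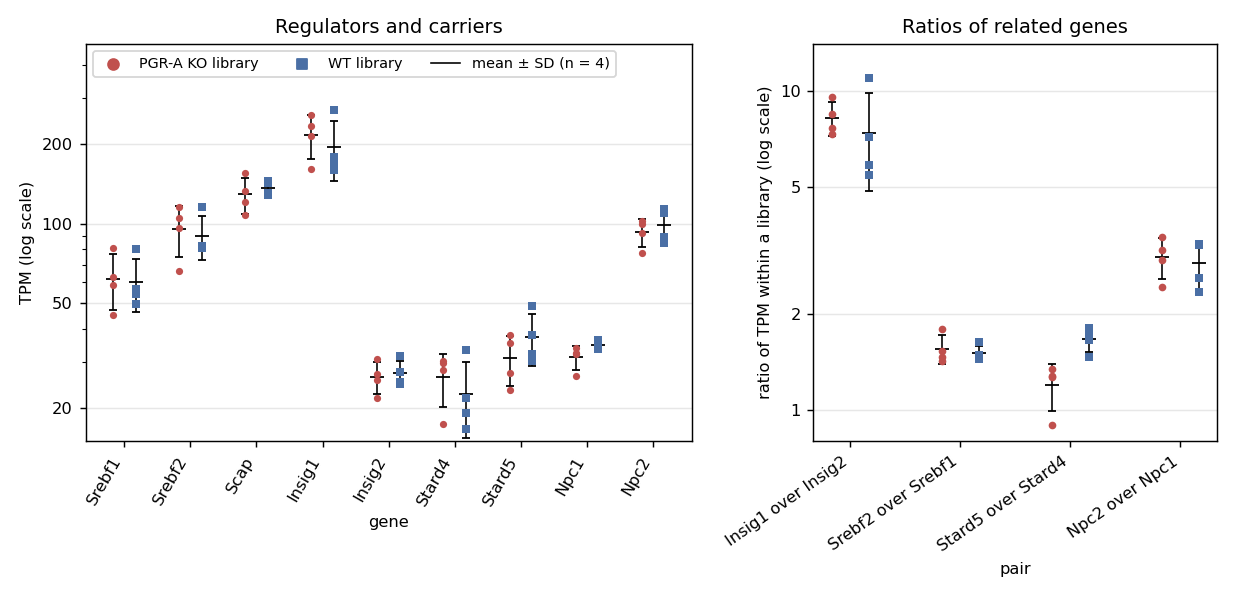
Left, TPM of the 5 regulator and 4 carrier genes by library on a log scale; right, the ratio of related genes within each library on a log scale. Points are libraries, PGR-A KO left of WT, with mean ± SD (n = 4); of the 4 ratios drawn, Stard5 over Stard4 is the one in which the genotypes do not overlap.

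The variation that the sterol genes did show ran across libraries of both genotypes. The ratio of the highest to the lowest library had a median of 1.91 over the 29 genes, from 1.18 for Ggps1 to 2.82 for Hsd17b7. It had a median of 1.46 over all genes tested and of 1.34 over the 8628 tested genes whose mean was at or above that of the lowest sterol gene. In all 29 genes the range among the KO libraries was wider, as a fold, than the difference between the genotype means, and in 28 of 29 the range among the WT libraries was too, Npc1 being the exception. A range of 4 libraries tends to exceed a difference of means in unchanged genes as well. The share over all genes tested was not counted, so these counts only describe the 29 genes.

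The same libraries were high or low in most of the genes. PGR-A KO replicate 3 was the lowest of the 8 libraries in 22 of 29 genes, and the lowest KO library in 28, the exception being Npc1. WT replicate 1 was the highest of the 8 in 14 genes and PGR-A KO replicate 2 in 10. WT replicate 1 was the highest WT library in 23 genes. The median log2 deviation from each gene's own mean was 0.21, 0.35, -0.43 and 0.09 in PGR-A KO replicates 1 to 4, against 0.41, -0.10, -0.28 and -0.17 in WT replicates 1 to 4. Over all genes tested these medians lay between -0.07 and 0.06.

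**Figure D4:**
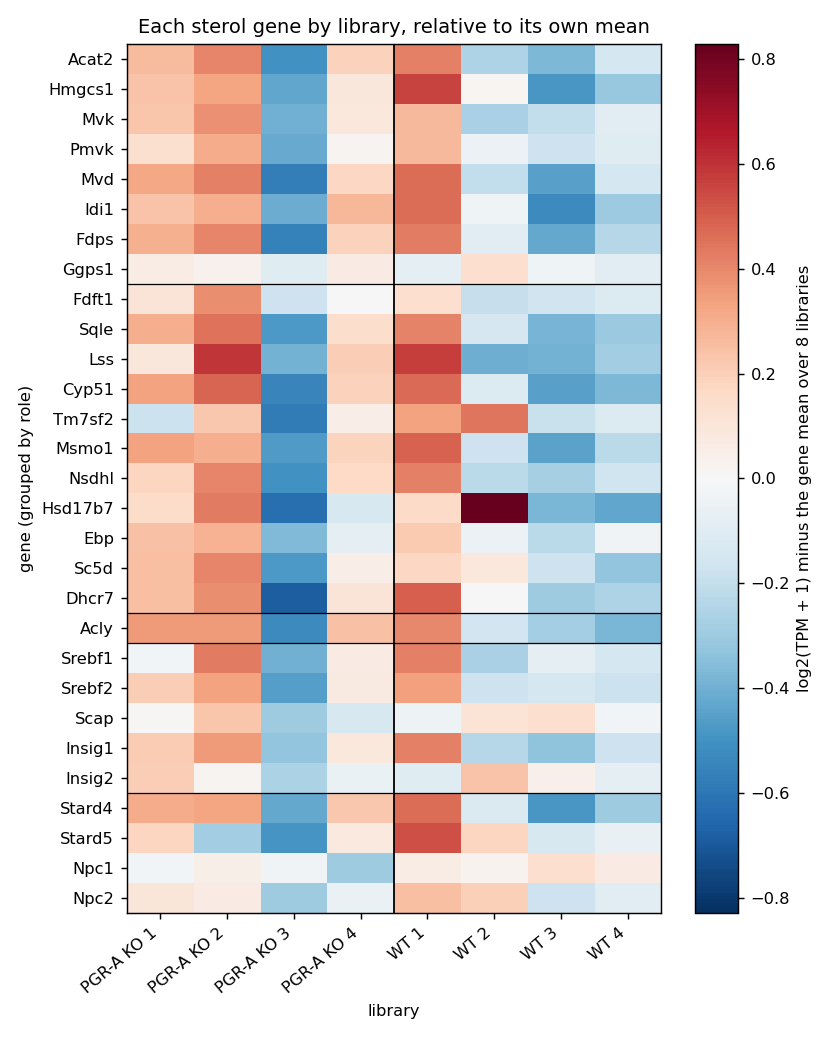
Log2(TPM + 1) of each of the 29 genes (y axis, grouped by role) in each library (x axis) relative to the gene's mean over 8 libraries, in red where higher and blue where lower. PGR-A KO replicate 3 is blue in every row and WT replicate 1 is red in most, while Ggps1, Scap, Insig2 and Npc1 are paler than most.

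The roles differed in how far they followed this order. The 11 squalene and sterol enzymes had a median deviation of -0.48 in PGR-A KO replicate 3 and 0.41 in WT replicate 1, and the 8 isoprenoid enzymes -0.42 and 0.42. The 5 regulators had -0.32 and 0.34, and the 4 carriers -0.36 and 0.36, in the same 2 libraries. In PGR-A KO replicate 2 the carriers had 0.06, against 0.40 in the squalene and sterol enzymes and 0.35 in the isoprenoid enzymes. In WT replicate 2 the carriers had 0.10, against -0.11 and -0.07 in turn. Within the regulators, Srebf1, Srebf2 and Insig1 moved with the enzymes while Scap and Insig2 varied 1.44-fold and 1.43-fold over the 8 libraries. The cause of this order was not tested.

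Other gene groups measured in the same libraries give the setting of that order. Genes of the ovulatory response had mean log2 deviations of 0.68, 0.36, -0.62 and 0.34 in PGR-A KO replicates 1 to 4, against 0.50, -0.17, -0.51 and -0.59 in WT replicates 1 to 4, over 15 genes. The 12 fatty acid synthesis genes had 0.11, 0.28, -0.48 and 0.02 in PGR-A KO, against 0.33, 0.06, -0.17 and -0.16 in WT. The 13 genes of the isoprenoid branches that use farnesyl and geranylgeranyl diphosphate had deviations within -0.09 and 0.07 in every library. The 8 granulosa markers had -0.03, 0.08, -0.19 and -0.27 in PGR-A KO, against -0.26, 0.43, 0.31 and -0.07 in WT. Oocyte markers, 12 of 12 of them above the filter, summed to 852 to 1523 TPM in PGR-A KO libraries and 627 to 1164 TPM in WT libraries, and their mean deviation was 0.57 in PGR-A KO replicate 3 and -0.15 in WT replicate 1. Macrophage markers, 9 of 10 above the filter, summed to 58.8 to 124 TPM in PGR-A KO libraries and 90.9 to 126 TPM in WT libraries, with 0.35 in PGR-A KO replicate 3 and 0.02 in WT replicate 1. Endothelial markers, 7 of 8 above the filter, summed to 16.8 to 30.3 TPM in PGR-A KO libraries and 22.0 to 45.02 TPM in WT libraries. Their mean deviation was -0.43 in PGR-A KO replicate 3 and 0.24 in WT replicate 1. These are the signs of the sterol genes, as in the surface epithelium, ovulatory response and fatty acid synthesis lists. In the same 2 libraries the mean deviation was -0.13 and 0.21 for the 8 surface epithelium markers. It was -0.15 and -0.15 for the 9 of theca and stroma. For the 5 of 6 erythroid markers above the filter it was 0.45 and -0.22. Summed, the surface epithelium markers held 90.3 to 93.1 TPM in PGR-A KO libraries and 85.6 to 118 TPM in WT libraries. Those of theca and stroma held 164 to 292 TPM in PGR-A KO libraries and 185 to 292 TPM in WT libraries. Lhcgr, the most abundant of them, had 46.4 to 136 TPM in PGR-A KO libraries and 63.4 to 153 TPM in WT libraries. The part of granulosa cells in Lhcgr was not tested, so that sum need not be theca and stroma alone. Erythroid markers summed to 3662 to 6319 TPM in PGR-A KO libraries and 1733 to 11370.0 TPM in WT libraries. No marker of the 6 lists for cells other than granulosa was at 0 in all libraries, and the part of other cells in the sterol gene values was not tested. In bulk RNA, fewer cells of a type and less RNA per cell cannot be told apart.

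When the 2 libraries that went against their genotype were left out together, 15 of the 29 genes passed the limma threshold, all of them higher in KO. Of the 14114 genes tested in those 6 libraries 8.01% passed, and 3.84% passed and were higher in KO. In 19 of the 29 genes the genotypes did not overlap in those 6 libraries, nor did they in 31.2% of all genes tested there. These included Acly (log2 change 0.59), Lss (0.66), Cyp51 (0.65), Sqle (0.58), Stard4 (0.58), Insig1 (0.46) and Srebf2 (0.37). The choice of the 2 libraries was made on these very values, so the 15 calls are no measure of the genotype.

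Promoter sequence is shown for 4 of the genes whose upstream bases hold a sterol element or E-box, kinds of site SREBP proteins are known to bind, and for Insig2, whose stretch holds neither. The 250 bases before each annotated start in RefSeq (GRCm38.p6) were searched for 24 of the 29 genes. Fdft1, Fdps, Npc1, Sqle and Stard4 were not in the promoter set searched, which need not hold every RefSeq gene. The genes used for comparison come from the same set. The sterol element TCACNCCAC, searched on both strands as were the other motifs, was found in 1 of the 24 genes, against 1.22% of 27025 genes. A looser spelling, TCACNNCAC, which includes the first, was found in 4 of 24 against 3.63% of genes, and the E-box CACGTG in 5 of 24 against 6.86%. The CCAAT box, a site of the factor NF-Y, was found in 21 of 24 genes against 37.5%, and the GC box GGGCGG in 22 of 24 against 35.4%. The 27025 genes were not matched to the 24 in expression or base content, so these gaps need not be particular to sterol genes. The spellings were settled after others had been tried. A match is a description of letters and not a measured site.

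The stretches lie outside all GENCODE M21 exons, run 5′ to 3′ on the strand of the gene, and have sterol elements, E-boxes and CCAAT boxes in capitals on either strand. Hmgcs1 is at chr13:119690101-119690350 on the plus strand, Hsd17b7 at chr1:169969242-169969408 on the minus strand, Insig1 at chr5:28071162-28071362 on the plus strand, Sc5d at chr9:42264301-42264550 on the minus strand, and Insig2 at chr1:121332590-121332839 on the minus strand.
Hmgcs1: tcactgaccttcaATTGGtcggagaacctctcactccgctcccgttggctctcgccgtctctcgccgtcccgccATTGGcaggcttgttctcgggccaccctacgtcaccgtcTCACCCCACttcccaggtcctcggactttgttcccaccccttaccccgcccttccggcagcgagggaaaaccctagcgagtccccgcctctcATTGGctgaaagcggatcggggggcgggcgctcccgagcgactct
Hsd17b7: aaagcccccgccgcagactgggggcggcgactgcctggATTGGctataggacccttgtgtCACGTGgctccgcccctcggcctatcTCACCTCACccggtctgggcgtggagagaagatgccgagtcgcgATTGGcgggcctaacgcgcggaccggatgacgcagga
Insig1: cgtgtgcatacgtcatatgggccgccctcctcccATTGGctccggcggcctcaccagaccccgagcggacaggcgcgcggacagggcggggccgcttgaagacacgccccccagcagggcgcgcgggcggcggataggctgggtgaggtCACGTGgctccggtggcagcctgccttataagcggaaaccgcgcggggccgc
Sc5d: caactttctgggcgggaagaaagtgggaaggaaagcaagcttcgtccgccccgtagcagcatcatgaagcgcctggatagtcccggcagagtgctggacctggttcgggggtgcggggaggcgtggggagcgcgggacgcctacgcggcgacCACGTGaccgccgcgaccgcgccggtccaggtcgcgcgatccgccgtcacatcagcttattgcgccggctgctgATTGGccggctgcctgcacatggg
Insig2: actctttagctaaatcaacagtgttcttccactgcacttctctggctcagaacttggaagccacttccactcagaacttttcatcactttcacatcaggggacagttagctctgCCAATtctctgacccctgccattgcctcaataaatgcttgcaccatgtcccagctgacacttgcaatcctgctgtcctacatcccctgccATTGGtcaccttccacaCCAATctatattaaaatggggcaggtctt

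The Hmgcs1 stretch holds the sterol element 137 bases before the start, with 3 CCAAT boxes. That of Hsd17b7 holds an E-box 143 bases and the looser element 117 bases before the start. Insig1 has an E-box 101 bases before the start and Sc5d one 98 bases before it. Insig2 has 3 CCAAT boxes and neither of the other kinds in this window.

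Genes of sterol metabolism outside the 29 gave 0 calls in either direction in any of 6 further lists (limma, adjusted over all genes tested). Of all genes tested 0.0138% were called, and 42.6% had a higher mean in KO. Higher and lower means in KO were 3 and 2 for other enzymes of the sterol pathway and its relatives. They were 6 and 7 for isoprenoid branches, where Coq2 of ubiquinone synthesis had a log2 change of -0.22. They were 4 and 9 for SREBP processing and sterol-regulated degradation, where Erlin1 had -0.14. Fatty acid synthesis had 4 and 8, and its lowest unadjusted limma p was 0.0347 for the elongase gene Elovl5, with 169 ± 23.0 TPM in PGR-A KO and 201 ± 17.7 TPM in WT (SD, n = 4 each, limma adjusted p = 0.783). Storage and intracellular transport had 9 and 7, with Gramd1c at 0.22. Oxysterol enzymes and LXR genes had 1 and 5, with the sterol hydroxylase gene Cyp27a1 at -0.64. Cyp27a1 had 4.26 ± 1.34 TPM in PGR-A KO and 7.38 ± 2.99 TPM in WT (SD, n = 4 each, limma adjusted p = 0.783), and the genotypes overlapped. Elovl5 and Cyp27a1 were the 2 genes of these lists with an unadjusted limma p under 0.05, where 6.31% of all genes tested fell below it.

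Some values rest on sequence shared with other genes. Acat2 matches Acat3 over 1477 bases at 97.7% identity, but Acat3 stood at no more than 0.563 TPM in any library. Fdps matches several pseudogenes, and a transcript of Gm43738 over 929 bases at 100% identity, with at most 0.149 TPM listed for Gm43738. Idi1 matches the pseudogene Gm13502 over 684 bases at 100% identity.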

How the data were processed

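The authors deposited 1 table of TPM per gene symbol for 8 libraries of polyA RNA. Per the labels' protocols RNA was extracted with a Monarch kit, prepared with a stranded TruSeq mRNA kit and read as pairs on a NovaSeq instrument. FastQC, Salmon, limma, edgeR and the build mm10 are named per the submitters' processing notes, without versions or roles; the annotation is not given in the sources used here. TPM sum to between 994519 and 997022 per library and keep no depth, so no counting interval is given and no count test was run.

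Groups and replicate numbers come from the titles. The test was limma (version 3.58.1, R version 4.3.3) with its trend option and no covariate, on the log2 of TPM plus a pseudocount of 1, for the 14472 genes that reached 1 TPM in 4 or more libraries. P-values are 2-sided, adjusted by Benjamini-Hochberg over all genes tested, with a threshold of 0.05, and measure the spread between pools of mice. Fold changes are on the log2(TPM + 1) scale, which understates those of low genes. The 9 ratios were compared by exact permutation tests. The limma steps were run on simulated data whose values varied independently between genes. Those data lack the shared order of libraries seen here, so they do not show how the test behaves under it.

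The members, lists and ratios were chosen with earlier results of these data known. Genes named with every library's value are the main enzymes, the regulators, the carriers and the 5 members with the lowest p. Ggps1 and Hsd17b7, with the smallest and largest range over the libraries, are given in the same way. Other lists name the gene with the lowest p, except 1 that is not reported here. Alternatives were other pseudocounts, filters, scalings (TMM factors, quantile), empirical Bayes settings, a replicate block and each library left out. Same-numbered libraries deviated with correlations of 0.361, -0.109, 0.393 and -0.29. The titles do not say whether the numbers pair them, and these correlations cannot settle it. No pairing was used in the main fit. Shared sequence was searched with BLASTN 2.17.0 in GENCODE M21 transcripts, at 95% identity or more over at least 100 bases.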

Additional observations from a re-analysis of the deposited data

Results flagged for a closer look

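Each of the 29 genes has 2 groups of 4 libraries, and in 5 of these 58 groups 1 library stood far off, where chance gives about 2.9. PGR-A KO replicate 3 was below the other KO libraries in Idi1, at 62.7 TPM with the next at 99.0 TPM. It was also below them in Acly, at 162 TPM with the next at 278 TPM. WT replicate 1 was above the other WT libraries in Lss, at 60.7 TPM with the next at 33.0 TPM, in Nsdhl, at 68.5 TPM with the next at 45.5 TPM, and in Srebf2, at 115.8 TPM with the next at 82.5 TPM.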

How the results depend on the processing

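The count of 0 sterol genes past the threshold held in every other setting tried and became 15 with 6 libraries (PGR-A KO replicate 3 and WT replicate 1 left out), a choice made after seeing the data. Genes past the threshold over all genes were 2, and they became 3 when 0.1 was added before the log and 1 when 5 was, 1131 with 6 libraries, and 0 to 6 with a library left out. Sterol genes whose genotypes do not overlap went to 1 with TMM factors (Npc1) and to 19 with 6 libraries. Over all genes tested, 31.2% did not overlap in those 6 libraries. Dropping any single library gave 0 to 1 such sterol genes. The matching share of all genes was not counted for TMM factors or for single libraries dropped. In the main setting that share was 3.42%, so a count of 1 among 29 need not be particular to Npc1. With 6 libraries the median log2 change of the sterol genes was 0.42, and it ran from 0.02 to 0.27 with a library left out. The summed enzymes differed by 713 TPM with 6 libraries and by 67.3 to 464 TPM with a library left out. Higher means in KO were found for 17 to 24 genes with a library left out and for 22 under the other settings except 6 libraries, which gave 24. All genes tested had higher means in 50.8% with TMM factors and 54.4% with quantile normalization. With the replicate block 2 genes passed over all and 0 sterol genes, the lowest adjusted p being 0.538 (Stard5).

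Of 522 values of single sterol genes under alternatives, 484 kept sign and side of the threshold, 15 passed it with 6 libraries and 23 changed sign. With a library left out the log2 change ran from -0.0774 to 0.165 for Pmvk, -0.0487 to 0.171 for Ebp, -0.10 to 0.26 for Dhcr7, -0.10 to 0.18 for Srebf1, -0.0198 to 0.245 for Srebf2, -0.25 to 0.17 for Hsd17b7, -0.124 to 0.0314 for Insig2 and -0.0296 to 0.318 for Hmgcs1. With 6 libraries Hsd17b7 had 0.15 and Npc2 0.0605. The causes were not tested. TPM gives no depth, so low values carry an unknown counting error.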
